A study of Mus musculus with 5 samples.

Results

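The enzymes that turn tryptophan into kynurenine and onward into NAD are encoded in the liver by a short series of genes, of which 10 were followed here: Tdo2, Afmid, Kmo, Kynu, Kyat1, Kyat3, Haao, Acmsd, Qprt and Nadsyn1. Array probes were assigned to them through the RefSeq accession that each probe carries, which gave 14 probes of 55681 on the array, and 10 genes of the 19752 that could be named. Kmo, Kynu, Kyat1 and Kyat3 had 2 probes each, and the other 6 genes had 1. Each of the 14 probes passed the scanner's test against background in the Cy3 and the Cy5 channel on every one of the 5 arrays, so none was lost to the filter on dim probes.

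Fosl1 is the gene of Fra-1, which pairs with JUN proteins to form the transcription factor AP-1. Livers of Fra-1hep mice, whose hepatocytes overexpress it on a C57BL/6J background, were compared with livers of C57BL/6J wt mice. Both groups were 26 to 28 weeks old and had received a high-fat diet, with 45% of its energy as fat, from 4 weeks of age. On 4 arrays, RNA of 1 Fra-1hep mouse in Cy5 was set against the joint RNA of 5 control mice in Cy3. The remaining array had the dyes exchanged, with Fra-1hep RNA pooled and labelled in Cy3. The sources used here name neither the mice of this Fra-1hep pool nor the promoter that drives the transgene. If the pool held the same 4 mice, the swapped array adds no animals.

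Between 47.2% and 61.5% of the non-control spots per channel and array were well above background. The single Fosl1 probe was well above background on 0 of 5 arrays in the Fra-1hep channel and on 1 in the control channel, so it did not check the labels. Of 12 hepatocyte marker genes, all 12 were measured: 2 rose (among them Fah, fitted log2 ratio 0.41), 1 fell (Tat, -0.58, and -0.33 without the swapped array, adjusted p = 0.143 by limma) and 9 did not pass. The Tat call passed under 7 of 18 other settings, and its mice ran from -0.75 to 0.22. The swapped pool stood apart among the hepatocyte markers: its median was -0.13, against 0.32 to 0.42 in the mice. Without that array, Alb (0.58), Ttr (0.88), Apoa2 (1.03), Trf (1.09) and Ass1 (0.50), all plasma protein or urea cycle genes, passed as higher, with the pool between -0.80 and -0.31. A dye effect and a deviation of the pool cannot be told apart. All 4 mice were labelled in Cy5, so values without the swapped array, here and below, hold any dye effect. Of 6 kidney tubule markers, tested because the kidney also uses this pathway, 2 were measured and neither passed. The 4 adipocyte markers were not well above background on any array.

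In the liver, Tdo2 opens the tryptophan ring and commits the amino acid to breakdown. The product passes through kynurenine, 3-hydroxykynurenine and 3-hydroxyanthranilate to an unstable semialdehyde, which either closes by itself to quinolinate, the precursor of NAD, or is diverted by Acmsd toward full oxidation. On a side branch, the aminotransferases Kyat1 and Kyat3 convert kynurenine to kynurenic acid. Kynu, Kyat1 and Kyat3 depend on the vitamin B6 cofactor pyridoxal phosphate.

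In Fra-1hep livers the changes were spread over different steps. Both aminotransferases of the kynurenic acid branch fell, with Kyat3 lower by 9.32-fold (95% interval of the fitted log2 ratio from -3.88 to -2.56) and Kyat1 by 1.85-fold (-1.10 to -0.67). Kynu fell 1.46-fold and Nadsyn1 1.14-fold, whereas Afmid rose 1.46-fold and Qprt 1.36-fold. Tdo2, Kmo, Haao and Acmsd did not pass the test. Fitted values here are log2 of Fra-1hep over control ± the moderated standard error, from limma's fit over 4 mice and the swapped pool, with p-values adjusted by Benjamini-Hochberg over 28108 probes and a threshold of 0.05.

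Of the 14 probes, 7 were lower, 2 were higher and 5 did not pass, while 25.0% of all tested probes passed, 14.4% lower and 10.6% higher. Read at the brightest probe of each gene, 6 of 10 members passed, against 30.4% of 13539 named genes. The 4 lower members stand beside 18.4% of named genes lower, and the 2 higher beside 12.0% higher. The median fitted log2 ratio was -0.03 over the 10 members and -0.02 over all named genes. The control pool counts as 1 control sample, so differences between individual control mice enter no test. The swapped array carries as much weight in a fitted value as the 4 mice together.

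**Figure D1:**
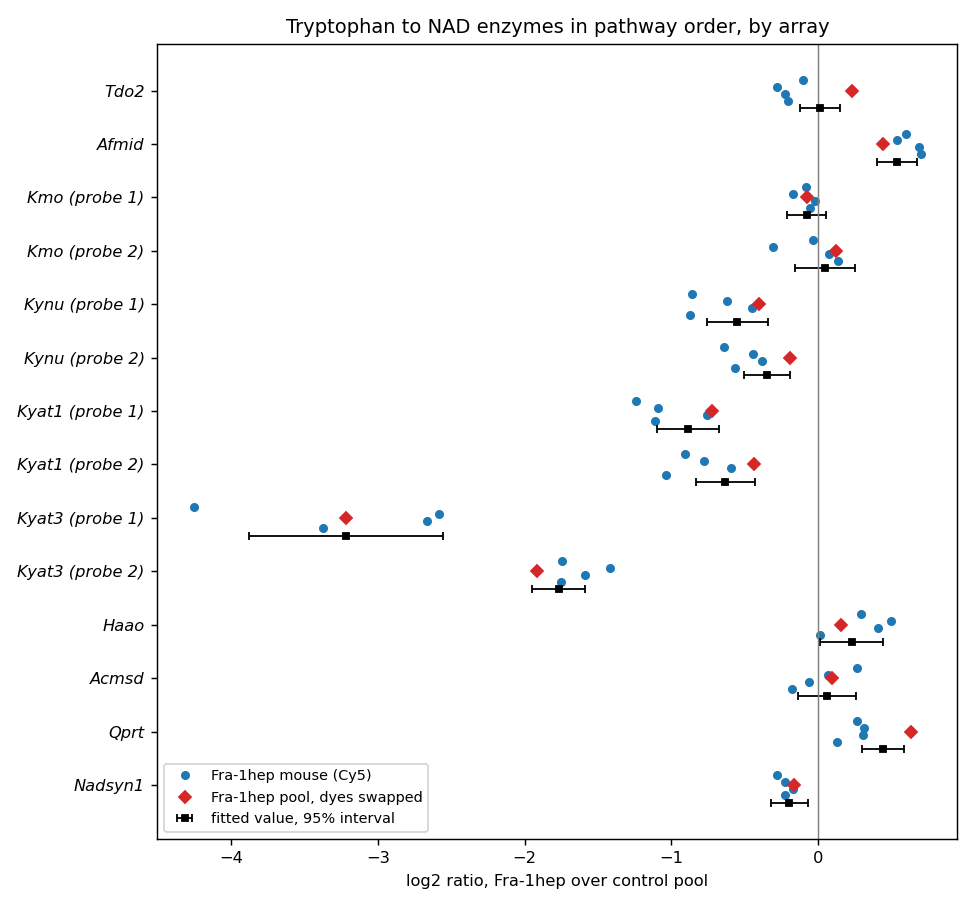
Log2 ratio of Fra-1hep over the control pool (x axis) for each probe of the 10 genes in pathway order (y axis). Blue points are the 4 mice, red diamonds the pool with swapped dyes, and black squares the fitted value with its 95% interval. The Kyat3 probes lie far to the left on all 5 arrays, Kyat1 and Kynu lie below 0, and Afmid and Qprt lie above 0.

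The promoters of the 2 aminotransferase genes are shown because both genes fell. Each line gives the 250 bases before the RefSeq start site (build GRCm38.p6), 5′ to 3′ on the gene's strand, with the core recognition letters of the aryl hydrocarbon receptor (AHR), a receptor that binds kynurenine and kynurenic acid, in capitals. Kyat3 lies on the plus strand at chr3:142700798-142701047 and Kyat1 on the minus strand at chr2:30205848-30206097. The Kyat1 stretch lies inside the full span of the gene given below, so its start site is not the outermost one. The Kyat3 stretch reaches past the edge of its gene's span.
Kyat3: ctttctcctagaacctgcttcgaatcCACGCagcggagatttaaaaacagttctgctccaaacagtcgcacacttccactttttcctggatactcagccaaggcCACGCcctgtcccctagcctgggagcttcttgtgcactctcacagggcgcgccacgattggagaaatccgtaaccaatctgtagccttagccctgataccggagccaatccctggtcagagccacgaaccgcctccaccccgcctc
Kyat1: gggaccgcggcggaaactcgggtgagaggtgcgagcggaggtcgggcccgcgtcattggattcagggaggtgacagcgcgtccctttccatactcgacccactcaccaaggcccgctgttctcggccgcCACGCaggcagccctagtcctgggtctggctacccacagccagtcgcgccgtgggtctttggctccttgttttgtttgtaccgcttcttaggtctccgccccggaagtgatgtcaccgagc

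RefSeq windows running from 250 bases before to 50 after the start site were held for 9 of the 10 members, without Kynu. As at Kyat1, the windows of Afmid and Haao lie wholly inside the gene's full span, so matches there are not upstream of the whole gene. They were searched on both strands for TGANTCA (AP-1), TGACGTCA (the cyclic AMP response element), TTGCGCAA (C/EBP) and GCGTG (AHR core). No 2 matches overlapped. The AP-1 letters were in 0 of the 9 windows, against 8.97% of 27025 genes with such windows, and the C/EBP letters and the cyclic AMP element were likewise in 0, against 0.207% and 2.03%. The AHR core was in 5 of 9 (Tdo2, Kyat1, Kyat3, Haao and Acmsd), against 35.2% of genes. Kyat3 had 2 matches, starting 224 and 146 bases before the start site, and Kyat1 had 1, starting 121 bases before it. These are letters in a window and were not tested as binding sites. The 250 bases before the start site held 13 CpG dinucleotides in Kyat3, 23 in Kyat1, 23 in Nadsyn1 and 15 in Afmid, where the median over all windows was 6. Qprt and Haao held 6 each, Kmo 5, Tdo2 3 and Acmsd 1.

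Kyat3 (gene ID 229905, chromosome 3, 142701019 to 142744911) encodes kynurenine aminotransferase 3. At its brighter probe the log2 ratio was -3.38, -2.67, -2.59 and -4.26 in mice 1 to 4, against -3.22 in the swapped pool. All 5 arrays were far below 0, and mouse 4 was the lowest. The fitted value was -3.22 ± 0.28 (adjusted p = 0.000439), and 7 of the 13539 named genes had a lower one. In the control channel the normalized log2 intensity stayed between 13.51 and 13.61 on all 5 arrays, whereas in the Fra-1hep channel it ran from 9.30 in mouse 4 to 10.94 in mice 2 and 3. The arrays therefore differed in the Fra-1hep signal, not in the control signal.

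The dimmer Kyat3 probe also fell, by less. Its log2 ratios were -1.75, -1.59, -1.41 and -1.74 in mice 1 to 4, against -1.91 in the swapped pool, with a fitted value of -1.77 ± 0.08 (adjusted p = 2.50e-05). On every array the brighter probe lay lower than the dimmer one, with a difference of -2.52 to -1.08 on the log2 scale. With a background offset of 0 in place of 50, the dimmer probe gave -2.06 and the brighter -3.27, and with Agilent's processed signals they gave -2.19 and -3.35. The size of the fall differed with the probe, between 3.41-fold and 9.32-fold at the main settings. Both probes carry the same accession, and their places in the transcript were not used here.

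Kyat1 (gene ID 70266, chromosome 2, 30185124 to 30206295) encodes kynurenine aminotransferase 1, also known as glutamine transaminase K. The brighter probe read -1.11, -0.75, -1.09 and -1.24 in mice 1 to 4, against -0.72 in the swapped pool. The fitted value was -0.88 ± 0.09 (adjusted p = 0.000831). The other probe read -1.03, -0.59, -0.77 and -0.91 in the mice and -0.44 in the pool (-0.63 ± 0.09, adjusted p = 0.00266). Both probes were below 0 on all 5 arrays, and in both mouse 2 had the smallest fall among the mice. The 95% intervals of Kyat1 and Kyat3 at their brighter probes did not overlap; the difference between the genes was not tested.

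Other enzymes known to make kynurenic acid did not pass in the fit of all 5 arrays. Aadat, kynurenine aminotransferase 2, was detected above background on 1 of 5 arrays in Fra-1hep RNA and on 4 in control RNA, so its level in Fra-1hep RNA was mostly below what the array measures. Its fitted value was -0.11 (adjusted p = 0.255) at the offset of 50 and -0.44, also not passing, with processed signals, and it is not evidence of an equal level. Got2, the mitochondrial aspartate aminotransferase, lay at 0.01 ± 0.05 (adjusted p = 0.877), but its 4 mice lay between -0.30 and -0.21 and the swapped pool at 0.29. Without the swapped array, Got2 was lower (-0.26, adjusted p = 0.00582), but that value holds any dye effect.

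**Figure D2:**
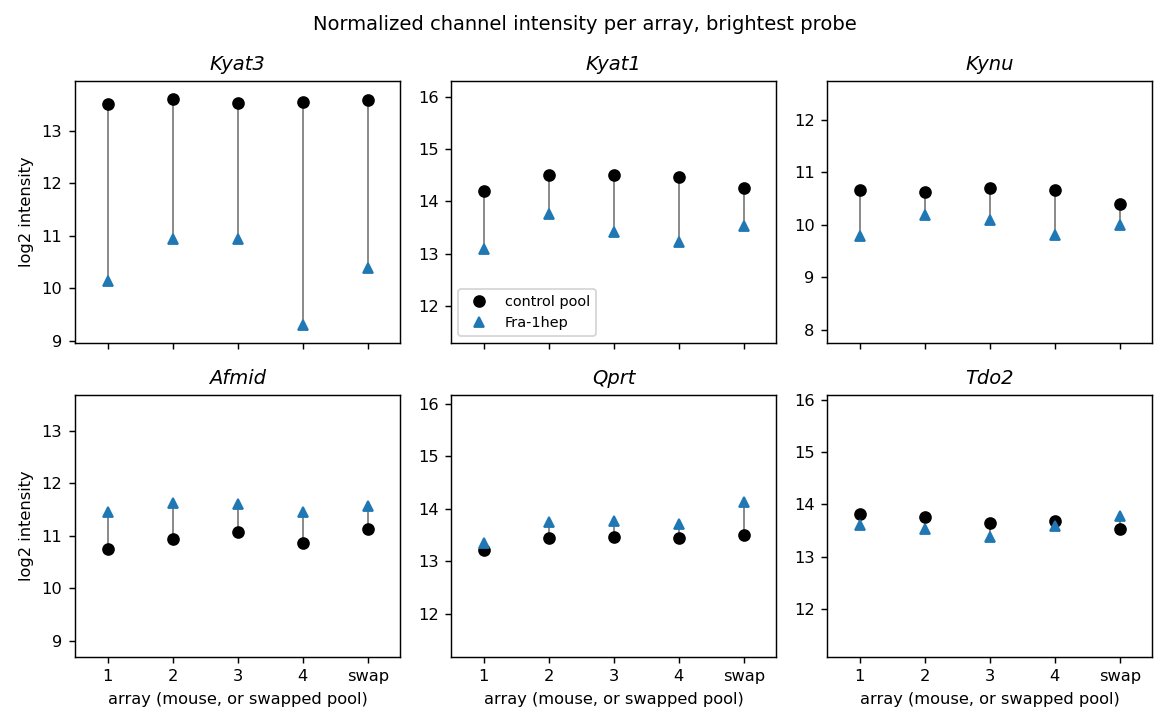
Normalized log2 intensity (y axis, spanning 5 log2 units in each panel) of the control channel (black circles) and the Fra-1hep channel (blue triangles) on each array (x axis: mice 1 to 4 and the swapped pool) at the brightest probe of 6 genes. The Kyat3 channels lie apart on every array, most in mouse 4; the Tdo2 channels change order on the swapped array.

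The main route begins with Tdo2, tryptophan 2,3-dioxygenase (gene ID 56720, chromosome 3, 81958412 to 81975728). Its log2 ratio was -0.20, -0.22, -0.28 and -0.10 in mice 1 to 4, against 0.24 in the swapped pool. The mice and the pool thus lay on opposite sides of 0, and the fitted value was 0.02 ± 0.06 (95% interval -0.12 to 0.15, adjusted p = 0.855). From the 4 mice alone it was lower, at -0.20 (adjusted p = 0.023), a value that holds any dye effect. The hepatocyte markers Alb, Ttr, Apoa2, Trf and Ass1 were split the other way, with the mice above 0 and the pool below 0. Among dioxygenases and tryptophan uptake genes, 1 gene passed as higher out of 5, with 4 not passing (median 0.16). Of the dioxygenases that share its reaction, Ido1 was too dim to be tested. Ido2 rose by 0.38 ± 0.07 (adjusted p = 0.00694), and the mice ranged from 0.25 to 0.52 with the pool at 0.39.

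Afmid, the formamidase that releases kynurenine (gene ID 71562, chromosome 11, 117825503 to 117839908), was higher on all 5 arrays. The log2 ratio was 0.71, 0.69, 0.54 and 0.60 in mice 1 to 4, against 0.45 in the swapped pool, with a fitted value of 0.54 ± 0.06 (adjusted p = 0.00106). The thymidine kinase gene Tk1 overlaps Afmid at its start, and Tk1 lay at 0.08 ± 0.05 (adjusted p = 0.299).

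Kmo, kynurenine 3-monooxygenase (gene ID 98256, chromosome 1, 175632193 to 175660853), did not pass at either probe. The brighter probe read -0.06, -0.02, -0.17 and -0.08 in the mice and -0.07 in the pool (-0.08 ± 0.06, 95% interval -0.21 to 0.06, adjusted p = 0.366). The other read 0.14, 0.07, -0.30 and -0.03 in the mice and 0.13 in the pool (0.05 ± 0.09, 95% interval -0.16 to 0.25, adjusted p = 0.728). The intervals leave room for a difference of at most 0.25 on the log2 scale in either direction.

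Kynu, kynureninase, the enzyme that follows (gene ID 70789, chromosome 2, 43555258 to 43683048), was lower at both probes on all 5 arrays. The brighter probe gave log2 ratios of -0.87, -0.45, -0.62 and -0.86 in mice 1 to 4, against -0.40 in the swapped pool (-0.55 ± 0.09, adjusted p = 0.0055). The other gave -0.56, -0.38, -0.44 and -0.64 in the mice and -0.19 in the pool (-0.35 ± 0.07, adjusted p = 0.010). Mouse 2 had the smallest fall among the mice at both probes, as at Kyat1.

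Macrophages also express Kynu and Kmo, and their markers moved in these livers. Of 12 macrophage markers listed, 11 could be tested, and 5 of these fell while 0 rose; Trem2 (-0.86), Cd74 (-0.99) and Itgax (-1.28) were among the fallen. The Kupffer cell genes Clec4f (0.07), Vsig4 (0.05) and Timd4 (0.13) were among the 6 that did not pass. The median of the list was -0.90, -0.11, -0.90 and -0.95 in mice 1 to 4, against -0.63 in the swapped pool, so mouse 2 again stood nearest to 0. Neutrophil markers rose, with 7 of 8 higher and Mpo at 2.74, and their median was highest in mouse 2 at 3.28. The part of these cells in the Kynu and Kyat1 values was not tested. In RNA from whole liver, fewer cells of a type and less RNA per cell cannot be told apart.

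Haao, 3-hydroxyanthranilate dioxygenase (gene ID 107766, chromosome 17, 83831348 to 83848981), was above 0 on all 5 arrays without passing. Its ratios were 0.02, 0.41, 0.50 and 0.29 in mice 1 to 4, against 0.16 in the swapped pool, for a fitted value of 0.23 ± 0.09 (95% interval 0.02 to 0.45, adjusted p = 0.106). Mouse 1, hybridised on a slide of its own, was the low one. Without mouse 1, which is also the value within the other slide, Haao passed at 0.28 (adjusted p = 0.0254), and without the swapped array at 0.31 (adjusted p = 0.0263).

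At the branch point, Acmsd, the decarboxylase that takes the semialdehyde away from NAD synthesis (gene ID 266645, chromosome 1, 127729413 to 127767564), did not differ beyond its spread. Its ratios were -0.17, -0.06, 0.07 and 0.27 in mice 1 to 4, against 0.10 in the swapped pool (0.06 ± 0.09, 95% interval -0.14 to 0.26, adjusted p = 0.626). The mice fell on both sides of 0. Aldh8a1, the dehydrogenase that acts next on that branch, lay at 0.05 ± 0.06 (adjusted p = 0.578), with the mice between -0.25 and -0.10 and the pool at 0.28. From the mice alone it passed as lower (-0.19, adjusted p = 0.0274).

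Qprt, the phosphoribosyltransferase that turns quinolinate into nicotinic acid mononucleotide (gene ID 67375, chromosome 7, 127107770 to 127122029), rose on all 5 arrays. Its ratios were 0.13, 0.31, 0.31 and 0.27 in mice 1 to 4, against 0.63 in the swapped pool (0.45 ± 0.06, adjusted p = 0.00257). The pool lay above every mouse, and the 4 mice alone gave 0.26, a rise that still passed. Nadsyn1, the amidating NAD synthetase of the last step (gene ID 78914, chromosome 7, 143795589 to 143822862), was lower by a small amount. It read -0.22, -0.17, -0.22 and -0.28 in the mice and -0.16 in the pool (-0.19 ± 0.05, adjusted p = 0.0386). That call ended without any 1 of the 4 mice (adjusted p from 0.0502 to 0.0816). It also ended when an assumed spread for the control pool was added (adjusted p = 0.118).

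**Figure D3:**
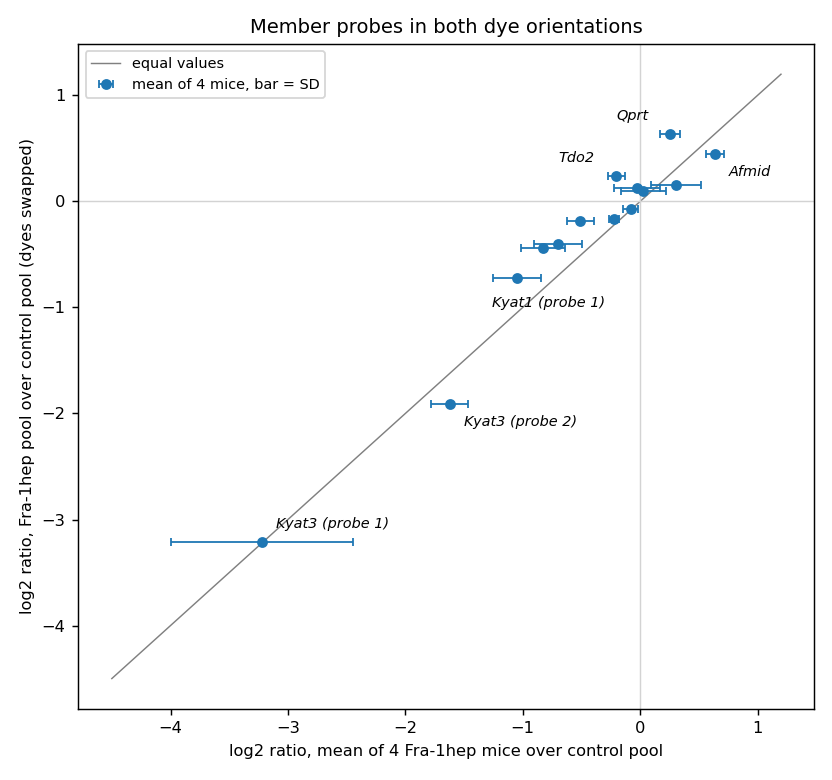
Log2 ratio of the swapped-dye pool (y axis) against the mean of the 4 mice (x axis, bars are the SD) for the 14 member probes, with the line of equal values. The Kyat3 probes lie near the line at the lower left, Tdo2 lies on opposite sides of 0 in the 2 orientations, and Qprt is higher in the pool (0.63) than in the mice (0.26).

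The genes around this route were read in the same fit, at the brightest probe of each. Over 7 lists of neighbouring steps with 64 genes, 56 were tested, of which 9 rose, 13 fell and 34 did not pass (39.3% past the threshold, beside 30.4% of named genes). With an assumed spread for the control pool added, here and below, 14 passed.

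Of 17 tested genes that use up NAD or clear nicotinamide, 7 fell, 1 rose and 9 did not pass (median -0.06). Nnmt, which methylates nicotinamide, fell by 0.93 (SE 0.10, adjusted p = 0.00105), and the mice ranged from -1.25 to -0.67 with the pool at -0.88. The aldehyde oxidases Aox3 (-0.76 ± 0.11) and Aox1 (-0.62 ± 0.06), which oxidise N-methylnicotinamide and other compounds, fell as well; the 2 genes resemble each other, so a probe may read both. The ADP-ribosyltransferases Parp14 (-0.42 ± 0.07) and Parp9 (-0.29 ± 0.06), both interferon-induced, and the deacylase Sirt5 (-0.25 ± 0.06) were lower too. The Sirt5 call ended with processed signals (adjusted p = 0.063), an offset of 0 (0.0652), without mouse 3 (0.0582) and with the control pool's spread (0.0848). The 1 that rose, Parp1 (0.18 ± 0.05, adjusted p = 0.0467), had its mice at 0.02 to 0.11 and the pool at 0.31. Its call ended under 11 of 18 other settings, among them leaving out the swapped array (0.05, adjusted p = 0.484) or any 1 mouse (adjusted p from 0.06 to 0.101). Cd38, an NAD glycohydrolase that immune cells also carry, fell by 0.70 (SE 0.09, adjusted p = 0.00189).

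In NAD salvage and phosphorylation, 3 of 10 genes rose, 1 fell and 6 did not pass (median -0.04). Nampt, the rate-limiting enzyme of nicotinamide salvage, lay at -0.10 ± 0.06 (adjusted p = 0.241). Of the enzymes that join the mononucleotide to AMP, mitochondrial Nmnat3 rose by 0.49 ± 0.06 (adjusted p = 0.00155) and nuclear Nmnat1 fell by 0.27 (SE 0.07, adjusted p = 0.0298). The Nmnat1 call ended with processed signals (adjusted p = 0.0818), an offset of 0 (0.063), without mouse 4 (0.0651) and with the control pool's spread (0.0967). Nmrk1, nicotinamide riboside kinase, rose by 0.45 ± 0.10 (adjusted p = 0.0176). That call ended with processed signals (adjusted p = 0.055), the deposited values (0.0549) and the control pool's spread (0.0638). Naprt, which takes up nicotinic acid into the pathway, passed at 0.25 ± 0.05 (adjusted p = 0.0171) on the strength of the swapped pool at 0.50, while its 4 mice lay between -0.05 and 0.05.

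Among other fates of tryptophan, 2 of 6 genes rose, 1 fell and 3 did not pass (median -0.05). Ddc, the aromatic amino acid decarboxylase, rose by 0.60 ± 0.08 at one probe and 0.51 ± 0.07 at the other. Inmt, an indole N-methyltransferase, rose by 0.75 ± 0.08 (adjusted p = 0.00102), and its mice lay at 0.88 to 1.27 with the pool at 0.38. Il4i1, an amino acid oxidase of myeloid cells, fell by 0.45 (SE 0.12, adjusted p = 0.0363), a call that passed under 10 of 18 other settings. It ended without mouse 1 (adjusted p = 0.0592), mouse 3 (0.0716) or mouse 4 (0.0712). Processed signals (0.0803), an offset of 0 (0.0706) and the control pool's spread (0.112) ended it too. Below Acmsd, 2 of 7 glutarate branch genes fell and 5 did not pass (median -0.16). Hadh fell by 0.41 (SE 0.07) and Aass, of lysine breakdown, by 0.36 (SE 0.07); the mice alone gave -0.18 for Aass (adjusted p = 0.0737). Gcdh, glutaryl-CoA dehydrogenase, did not pass (-0.14 ± 0.06), but the mice alone gave -0.34 (adjusted p = 0.00326).

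Of the AHR and its target genes, 2 fell among 8 measured, 0 rose, and 6 missed the threshold (median -0.15). Of all named genes, 18.4% fell and 12.0% rose. Nqo1, a quinone reductase, fell by 0.44 (SE 0.08, adjusted p = 0.00698). Ugt1a6a fell by 0.29 (SE 0.07); it shares exons with other Ugt1a genes, and the mean of its 3 probes gave -0.11 without passing (adjusted p = 0.185). The mice alone gave -0.12 (adjusted p = 0.199), and the call ended under 7 of 18 other settings in all. Ahr itself did not pass (-0.35 ± 0.13, adjusted p = 0.0859), though it did without mouse 4 (-0.43, adjusted p = 0.00892) and without the swapped array (-0.45, adjusted p = 0.0202). Cyp1a1 reached no array's background threshold in Fra-1hep RNA and passed it on 3 arrays in control RNA, so its value (-0.13, not passing) lies near the floor. Cyp1b1 lay at -0.17 ± 0.08 (adjusted p = 0.17). Cyp1a2 (0.08 ± 0.12, mice from -0.17 to 0.52, pool -0.09), Arnt (0.07 ± 0.09) and Tiparp (-0.05 ± 0.07) did not pass either.

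Of the enzymes that handle pyridoxal phosphate, Pdxp, a phosphatase that removes it, rose by 0.88 ± 0.08 (adjusted p = 0.000397) at its brighter probe, while its other probe gave 0.14 ± 0.08 and did not pass (adjusted p = 0.249). Pdxk, a kinase of vitamin B6, lay at 0.09 ± 0.06 (adjusted p = 0.31).

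**Figure D4:**
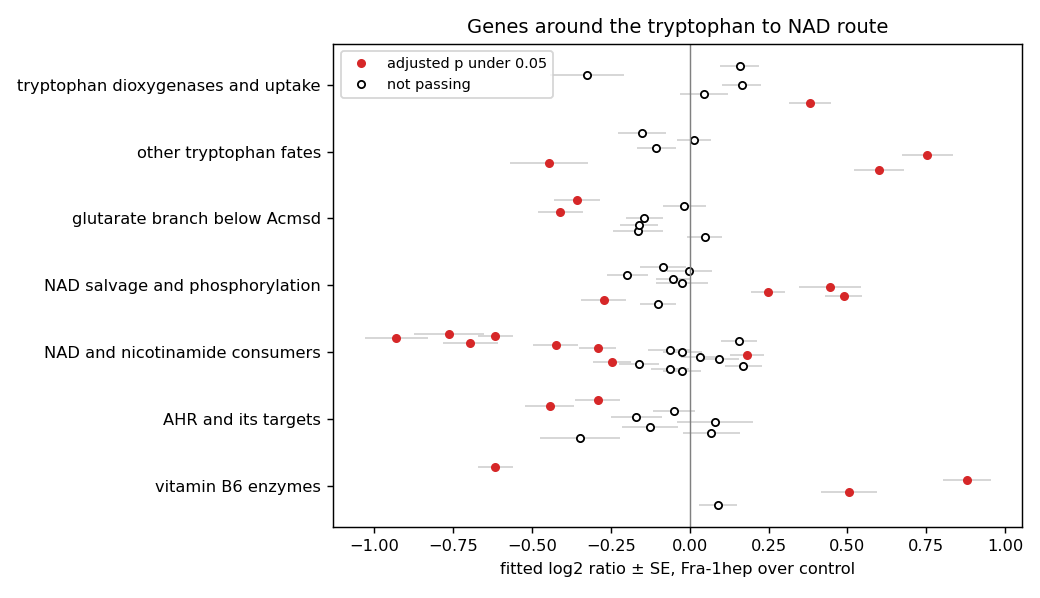
Fitted log2 ratio of Fra-1hep over control with its standard error (x axis) for the tested genes of 7 lists around the route (y axis), at the brightest probe. Red points passed the threshold of 0.05 and open points did not. Most red points of the NAD and nicotinamide consumers lie below 0, down to Nnmt at -0.93.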

How the data were processed

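Liver RNA was measured on 5 Agilent 2-colour arrays; per the labels' protocols, 100 ng of RNA with an integrity score above 7.8 was labelled. The authors' deposited scanner files hold spot intensities extracted with Agilent Feature Extraction (10.7 per the submitters' processing notes, 10.7.3.1 per the file headers), a log10 ratio of Cy5 over Cy3 from background-subtracted, dye-normalized processed signals, and 0 or 1 flags for background, saturation and uniformity. The deposited series table holds log2 ratios. Its columns had slopes on the scanner ratios between 0.994 and 0.999 for the 4 mice and of -1 for the swapped array, so its sign is Fra-1hep over control; its column medians were 0.13, 0.08, 0.04, 0.13 and -0.04, and its centring stays unknown.

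Each spot's median signal was background-corrected by normexp against the local background, with an offset of 50, and normalized by loess within arrays, with control and non-uniform spots at weight 0; 189 non-uniform spots of 62976 per array were left out over the 5 arrays, and 0 were saturated. Spots of 1 probe were averaged. Probes detected in 1 channel or both on 3 or more arrays were kept, and 6 of these without a genotype fit were dropped, which left 28108. Accessions named 26056 probes through a RefSeq gene table (GRCm38.p6), and 29625 stayed unnamed. Each probe was fitted with limma 3.58.1 (R 4.3.3) as a genotype term (1 on the mouse arrays, -1 where dyes were swapped) plus an intercept for dye. The fit had 3 residual degrees of freedom, all among the mice, and 4.30 prior ones. Precision is limited by the number of arrays; named genes had a median standard error of 0.0668. The fit was tested on simulated data. Channel intensities are log2 values after loess and Aquantile.

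Named were all 10 members with every probe, branch-point genes whatever their value, up to 4 genes with the smallest p from each list, and neighbours of members past the threshold. Parp14, Parp9, Sirt5, Parp1, Cyp1a1, Gcdh, Alb, Ttr, Apoa2, Trf, Ass1, Clec4f, Vsig4, Timd4, Asic5 and Dhcr7 were named after their values were seen. So were Ctso, Fh1, Mta3, Zfp36l2 and Ccnt2. Some listed genes are not reported here. The members and lists were chosen with earlier results of these data known. No list was tested as a list. Alternatives covered the dye term, background, offset, filter, centring, array weights, slide, probe summary, control spread and each array left out.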

Additional observations from a re-analysis of the deposited data

How the results depend on the processing

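Over 18 other settings, both probes of Kyat3, Kyat1 and Kynu, and the probes of Afmid and Qprt, kept their direction and passed wherever they were fitted. The brighter Kyat3 probe ranged from -3.35 to -2.49 (the mean of both probes) and Qprt from 0.26 to 0.47. Kmo and Acmsd passed under 0 settings. Nadsyn1 passed under 8 of 18. Between 8 and 11 of 14 member probes passed over 16 settings that keep probes apart, and 8 to 9 with 1 mouse left out.

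Without the swapped array, Tdo2 (-0.20), Aldh8a1 (-0.19), Got2 (-0.26), Naprt (-0.0026) and the dimmer Kmo probe (-0.03) were among the values that turned negative. In that setting, dye and genotype are not separated. The spread among control mice was not measured. If they are assumed to vary as the Fra-1hep mice do, adding the spread of a pool of 5 multiplied every standard error by 1.28. That left 3414 of 28108 probes, and 14 of 56 genes around the route, past the threshold. With 1 mouse left out, 5311 to 6761 probes passed.

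Mouse 1 had a slide of its own. Within the other slide, which gives the same values as slide as a block, the brightest probes read -3.19 for Kyat3, -0.87 for Kyat1, -0.52 for Kynu, 0.53 for Afmid, 0.47 for Qprt and -0.19 for Nadsyn1 (adjusted p = 0.0542, not passing). No paired analysis was possible because every mouse was set against 1 control pool, and the swapped array is the single pooled array of its group, with no mouse of its own to pair. Dim probes are pulled toward 0 by the offset of 50, as the dimmer Kyat3 probe shows.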

Other observations

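The genes next to the members on their chromosomes were read in the same limma fit, in which 30.4% of all named genes passed. Ctso, Tk1, Syngr2, Fh1, Spout1, Mta3, Zfp36l2, Ccnt2, AI467606 and Mrgpre were tested and did not pass. Neighbours not named here had no fitted value. Beside Tdo2, 6565 bases away, Asic5, an acid-sensing ion channel gene, rose by 0.79 ± 0.12 (adjusted p = 0.00375), and the mice ranged from 0.47 to 1.14 with the pool at 0.76. Beside Kyat3, the interferon-induced gene Gbp2, 63011 bases away, fell by 1.04 (SE 0.08, adjusted p = 0.00027), and Gtf2b on the other side, 20336 bases away, fell by 0.24 (SE 0.06, adjusted p = 0.0304). Dhcr7, of cholesterol synthesis, is 305 bases from Nadsyn1, on the side of the Nadsyn1 start site. Its fitted value was 0.36 ± 0.17 (adjusted p = 0.172). Beside Qprt, Spn, a leukocyte surface gene 1608 bases away, fell by 0.63 (SE 0.16, adjusted p = 0.028), while Qprt rose. Beside Kyat1, the volume-regulated channel gene Lrrc8a, 31474 bases away, fell by 0.24 (SE 0.07, adjusted p = 0.037). Arhgap15, 65750 bases from Kynu, fell by 0.32 (SE 0.07, adjusted p = 0.0144). Beside Afmid, the cell division gene Birc5, 9329 bases away, fell by 0.63 (SE 0.14, adjusted p = 0.0186), while Afmid rose.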
